A study of Homo sapiens with 6 samples.

Results

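The genes described here are 45 members of the hypoxia response and of glycolysis, taken by symbol from the 20014 genes of a deposited expression table. They comprise 8 genes of the HIF pathway, 14 hypoxia targets, 4 glucose and lactate transporters and 19 glycolytic enzymes and their regulators. RNA was sequenced after poly(A) selection from HaCaT, an immortalized human keratinocyte line, in 3 libraries labelled STUB1 knockout and 3 control libraries labelled WT. Per the labels, knockout cells carried a lentiviral CRISPR vector (lentiCRISPR v2) with sgSTUB1, control cells had the same vector with sgControl, and neither was treated further. The protocol describes sorting into plates and a screen of colonies by immunoblot for STUB1, in ordinary humidified air with added CO2. The labels do not state if replicate libraries derive from different clones or cultures, so p-values speak of library-to-library spread alone, and that may be technical. Values are FPKM, fragments scaled by transcript length and sequencing depth, and changes are differences of log2(FPKM + 1), knockout minus control.

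Cells sense oxygen through the hypoxia-inducible factors. When oxygen is present, the EGLN enzymes hydroxylate the alpha subunits HIF1A and EPAS1 (HIF-2 alpha), which VHL then binds and marks for degradation. When oxygen is short they pair with ARNT and bind the core hypoxia response element of target genes for glucose uptake, glycolysis, lactate export, mitophagy and blood vessel growth. STUB1, the ubiquitin ligase CHIP, works with the chaperones HSP70 and HSP90, and HIF1A protein is a known chaperone client. Much of this control acts on proteins, which RNA levels do not show. In bulk RNA, fewer cells with a transcript and less of it per cell cannot be told apart.

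STUB1 mRNA measured 21.6, 24.7 and 23.2 FPKM in the knockout libraries, against 37.8, 41.9 and 52.7 FPKM in the control libraries. The groups did not overlap, with a log2 change of -0.89 (limma, Benjamini-Hochberg adjusted p = 0.00125). The cells kept keratinocyte and general epithelial markers: 11 of them summed to 1244 to 1334 FPKM in knockout and 1102 to 1189 FPKM in control libraries. SFN alone gave 368 to 510 FPKM of that, and KRT14, a basal keratin, stayed at 0.162 to 0.328 FPKM. Of the 10 markers that were tested, KRT5, COL17A1 and LAMB3 rose and EPCAM fell, and the part of that in the results below was not tested. Markers of other cells were low. The summed FPKM in knockout and control libraries was 0.442 to 0.568 and 0.453 to 0.552 for 7 fibroblast markers, 6.48 to 7.66 and 6.77 to 7.41 for 7 melanocyte markers, 22.8 to 25.5 and 21.4 to 22.6 for 7 leukocyte markers, nearly all of it CD68, and 1.89 to 2.01 and 2.07 to 3.03 for 5 endothelial markers. DCN, TYR and KDR, of the fibroblast, melanocyte and endothelial lists, were at 0 in every library, and the leukocyte marker PTPRC reached at most 0.011 FPKM. Other markers of those lists were detected. COL1A1 ran from 0.424 to 0.535 FPKM, PMEL from 4.9 to 5.8, MITF from 1.5 to 1.8 and CDH5 from 1.8 to 3.0 FPKM. Control 3 stood apart: its correlation with controls 1 and 2 across genes (Pearson's r of log2 values) was 0.988 and 0.986, against 0.998 between those libraries. For 30 of the 42 tested genes of the set, its value lay outside the range of the other 5 libraries.

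Of the 45 genes, 42 averaged at least 1 FPKM and were tested. In the knockout 5 rose (EPAS1, ADM, HK1, PFKL and PFKFB3), 9 fell (HIF1A, BNIP3, BNIP3L, PDK1, PDK3, ANGPTL4, SLC16A3, HK2 and ENO2) and 28 did not pass the test. On the log2(FPKM + 1) scale no called change reached 1, although by the ratio of means ANGPTL4 stood at 49.6% of control. Among all 11262 tested genes 9.58% were called higher, 13.3% lower and 22.9% in either direction (limma, Benjamini-Hochberg adjusted p under 0.05), against 14 of 42 genes (33.3%) here. The median change was -0.05 over the 42 genes and -0.01 over all tested genes. Groups did not overlap for 22 of the 42 genes (52.4%), 9 higher and 13 lower, against 45.6% of all tested genes, 20.4% higher and 25.3% lower. Of the 14 genes averaging 50 FPKM and above only HIF1A was called, against 19.8% of 1231 tested genes at that level.

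Single libraries moved these counts. The 5 higher and 9 lower genes became 1 and 3 without knockout 1, 0 and 2 without knockout 2, 1 and 1 without knockout 3, and 2 and 5 without control 1. They were 5 and 9 without control 2, and 6 and 13 without control 3. Rescaled so that each library has the same sum (TPM) they were 2 and 11, and over nuclear genes alone (nuclear TPM) 3 and 3. Over all genes the higher share of calls moved with this scaling, to 29.1% as TPM and 48.8% as nuclear TPM, against 41.8%. ENO2 kept its call under all 15 alternatives tried, and none of the 14 called genes changed sign under any. Groups of these 14 did not overlap, so only alternatives that rescale or adjust whole libraries could have turned a sign.

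**Figure D1:**
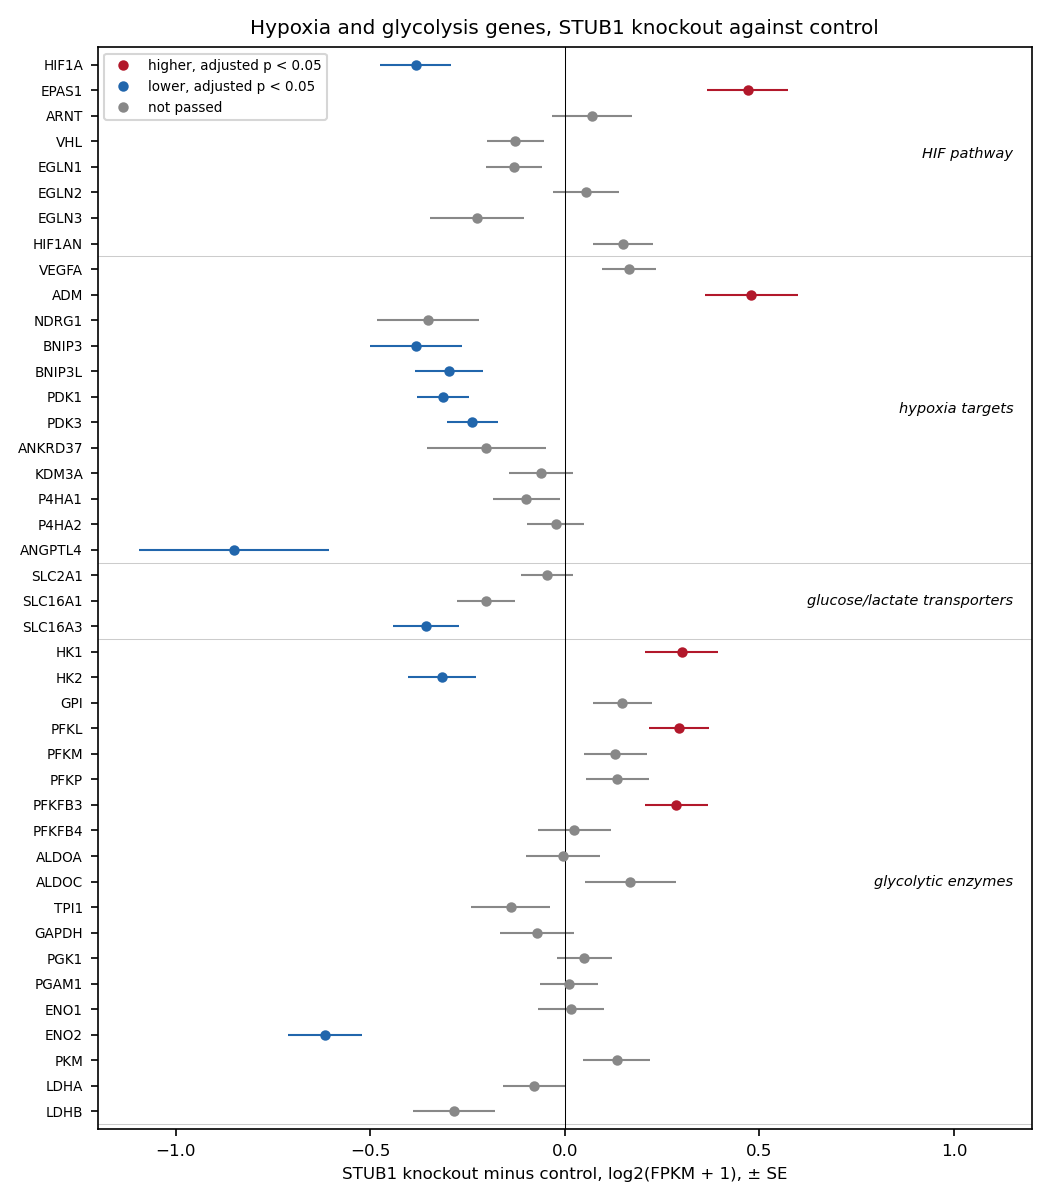
Log2 difference, knockout minus control, of the 42 tested genes (points; bars are ± SE from limma) by subgroup, with the 5 genes called higher in red, the 9 called lower in blue and the 28 that did not pass in grey. HIF1A and EPAS1, and HK1 and HK2, lie on opposite sides of 0, while most glycolytic enzymes sit near it.

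The core of the hypoxia response element, ACGTG, was searched on both strands in the 250 bases before the RefSeq start (GRCh38.p14) of the 39 genes for which a promoter was given. It stood in 16 of them (41.0%), against 23.9% of 8912 promoters of tested genes. The set was chosen as hypoxia and glycolysis genes, so this gap is not a result about the knockout. Among genes called lower the core was in 5 of 8 (BNIP3, PDK3, ANGPTL4, HK2 and ENO2), and among those called higher in 0 of 5. Among those that did not pass it was in 10 of 24 (41.7%). The called genes are few, and a difference by direction was not tested. Over all tested genes the core was in 26.3% of promoters of lower genes, 17.3% of those of higher genes and 24.2% of those that did not pass. GCGTG, another form of the core, was in 14 of 39 (35.9%), against 46.8% of promoters of tested genes. These are letter matches in 1 window a gene, and which start these cells use was not measured. For 30 of the 39 genes an annotated transcript began near the RefSeq start. The promoters printed here show the core, in capitals, in 4 genes that fell and in LDHA, a textbook HIF target that did not pass. Each runs 5′ to 3′ on the strand of its gene, and CACGT is ACGTG read on the opposite strand, so that CACGTG holds overlapping matches on both.
HK2 (chr2:74833877-74834126, plus strand): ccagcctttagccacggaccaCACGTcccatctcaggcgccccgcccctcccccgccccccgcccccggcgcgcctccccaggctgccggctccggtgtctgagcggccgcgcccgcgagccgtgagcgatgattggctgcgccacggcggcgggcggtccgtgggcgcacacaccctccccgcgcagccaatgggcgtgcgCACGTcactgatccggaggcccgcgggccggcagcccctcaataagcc
ENO2 (chr12:6914330-6914579, plus strand): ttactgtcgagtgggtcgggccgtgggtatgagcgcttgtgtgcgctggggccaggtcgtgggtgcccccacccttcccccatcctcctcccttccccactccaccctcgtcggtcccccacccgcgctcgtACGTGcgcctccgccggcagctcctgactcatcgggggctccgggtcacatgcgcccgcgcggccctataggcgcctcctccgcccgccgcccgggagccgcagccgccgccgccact
BNIP3 (chr10:131981924-131982173, minus strand): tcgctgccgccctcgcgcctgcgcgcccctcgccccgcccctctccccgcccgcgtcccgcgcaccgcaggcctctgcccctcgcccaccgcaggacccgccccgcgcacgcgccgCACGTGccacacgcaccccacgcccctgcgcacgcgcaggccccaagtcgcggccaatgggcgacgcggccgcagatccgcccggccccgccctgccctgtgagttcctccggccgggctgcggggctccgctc
ANGPTL4 (chr19:8363905-8364154, plus strand): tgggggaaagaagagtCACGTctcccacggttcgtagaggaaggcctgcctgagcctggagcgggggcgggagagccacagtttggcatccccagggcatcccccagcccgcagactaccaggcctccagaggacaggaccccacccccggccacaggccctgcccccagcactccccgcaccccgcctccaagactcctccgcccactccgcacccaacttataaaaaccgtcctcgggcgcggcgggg
LDHA (chr11:18394313-18394562, plus strand): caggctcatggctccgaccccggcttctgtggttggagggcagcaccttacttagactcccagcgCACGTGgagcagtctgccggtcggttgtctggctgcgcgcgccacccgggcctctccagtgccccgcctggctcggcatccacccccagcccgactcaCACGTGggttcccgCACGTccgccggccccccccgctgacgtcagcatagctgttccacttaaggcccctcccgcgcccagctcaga

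HK2 holds the core at 2 places, and ENO2 and ANGPTL4 at 1 place each. BNIP3 has 1 palindrome, CACGTG. LDHA has the core at 3 places, of which 2 are palindromes.

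The alpha subunits moved in opposite directions. HIF1A (chromosome 14, 61695513 to 61748259, GRCh38) measured 79.4, 68.0 and 74.0 FPKM in the knockout libraries, against 102.7, 100.1 and 87.2 FPKM in the control libraries. All knockout values lay below all control values, with a log2 change of -0.38 (SE 0.0906; limma, Benjamini-Hochberg adjusted p = 0.0173). EPAS1 (chromosome 2, 46293667 to 46386703), which is more restricted by cell type, measured 39.5, 38.5 and 37.1 FPKM in the knockout, against 29.2, 30.6 and 23.0 FPKM in the control. All its knockout values lay above all control values, with a log2 change of 0.47 (SE 0.104; limma, adjusted p = 0.0133). HIF1A made up 66.8%, 63.8% and 66.6% of the summed FPKM of both subunits in knockout libraries, against 77.9%, 76.6% and 79.1% in control libraries. The mean share was 65.8% ± 1.68 in the knockout and 77.9% ± 1.28 in the control (SD, n = 3 each), and rescaling a library does not move it. A library's trend with GC content can, as HIF1A has 36.4% GC and EPAS1 52.6%, and no adjusted share was computed.

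In a fit on values adjusted for each library's trend with GC content and transcript length (the GC/length adjustment), HIF1A stood at -0.19 and EPAS1 at 0.35. The HIF1A call was lost without knockout 2 (0.0868), knockout 3 (0.0673) or control 1 (0.0649), as nuclear TPM (0.0619), with the GC/length adjustment (0.108) and with the adjustment and the block (0.0791), where brackets give limma's adjusted p here and for the genes that follow. The block pairs libraries by their number. EPAS1 lost its call without knockout 1 (0.0573) or knockout 2 (0.0755). HIF1A shares 117 of its 5151 exonic bases with HIF1A-AS1 on the opposite strand, whose reads cannot be told apart from it, since no strand setting is stated.

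The partner and the oxygen sensors of the alpha subunits did not pass. ARNT, the common beta subunit, averaged 7.69 ± 0.245 FPKM in the knockout and 7.33 ± 1.12 FPKM in the control (SD, n = 3 each). VHL, which recognises hydroxylated HIF, was lower in every knockout library, at 15.6, 15.3 and 16.0 FPKM, against 18.1, 17.4 and 16.0 FPKM in the control. Knockout 3 and control 3 were all but equal. Its log2 difference was -0.13 (95% interval -0.29 to 0.04; limma, adjusted p = 0.230), and it passed with array weights (-0.17, 0.00345) and without control 3 (-0.18, 0.0334). EGLN1, the main HIF prolyl hydroxylase, was also lower in every knockout library, at 10.4 ± 0.409 FPKM, against 11.5 ± 0.582 FPKM in the control (log2 difference -0.13, adjusted p = 0.219). EGLN2 and the hypoxia-induced EGLN3 overlapped between groups, with log2 differences of 0.05 and -0.22. EGLN2 shares 2012 of its 6577 exonic bases with RAB4B-EGLN2 on the same strand, so its level is uncertain by the reads that could be split. HIF1AN, the asparaginyl hydroxylase that blocks coactivator binding, was higher in every knockout library, at 9.12 ± 0.270 FPKM, against 8.14 ± 0.600 FPKM in the control (log2 difference 0.15, adjusted p = 0.187).

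Among hypoxia targets 5 of the 12 tested fell (41.7%), 1 rose (8.33%) and 6 did not pass. Over all tested genes 13.3% were called lower and 9.58% higher. The median log2 change of the targets was -0.22, against -0.01 over all tested genes. ADM was the 1 that rose, and ANGPTL4, BNIP3, BNIP3L, PDK1 and PDK3 fell. Higher and lower genes numbered 0 and 1 without knockout 1, 0 and 0 without knockout 2, 0 and 0 without knockout 3 and 1 and 3 without control 1. They numbered 1 and 1 as nuclear TPM, 0 and 3 without a filter on low values (PDK1, PDK3 and CA9, which the filter leaves out), and 1 and 3 with the GC/length adjustment (1 and 4 with the block added).

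ADM encodes adrenomedullin, a secreted vasodilator peptide. It measured 27.7, 30.0 and 28.5 FPKM in the knockout libraries, against 16.5, 20.9 and 24.1 FPKM in the control libraries. All knockout libraries were above all controls, with a log2 change of 0.48 (SE 0.120; limma, Benjamini-Hochberg adjusted p = 0.0218). The call was lost without knockout 1 (0.0604), knockout 2 (0.114) or knockout 3 (0.0645) and without a filter (0.0530). VEGFA, the main angiogenic factor and a textbook HIF target, was likewise higher in every knockout library, at 59.3, 59.7 and 57.1 FPKM, against 51.3, 54.7 and 50.7 FPKM in the control. It did not pass (log2 difference 0.17; limma, adjusted p = 0.111) except with array weights (0.15, 0.00596), and stood at -0.04 with the GC/length adjustment.

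ANGPTL4, a secreted inhibitor of lipoprotein lipase, was among the genes that fell. It measured 3.98, 6.12 and 6.25 FPKM in the knockout libraries, against 6.92, 10.4 and 15.6 FPKM in the control libraries. The highest knockout and the lowest control library were close, and the controls spread widely. On the log2(FPKM + 1) scale the change came to -0.85 ± 0.243 (SE; limma, Benjamini-Hochberg adjusted p = 0.0352), larger than that of the other tested genes of the set in this fit, but not with array weights or without control 3. Without control 1 it was -1.12 and without control 3 -0.58. With array weights, which gave control 3 a weight of 0.123, the change was -0.37 (adjusted p = 0.0147). The call was lost without knockout 1 (0.123), knockout 2 (0.118) or knockout 3 (0.0523) and without a filter (0.0941).

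BNIP3 and BNIP3L are related mitophagy receptors of the outer mitochondrial membrane. BNIP3 measured 6.41, 5.79 and 6.65 FPKM in the knockout, against 7.72, 7.50 and 10.5 FPKM in the control (log2 change -0.38; limma, Benjamini-Hochberg adjusted p = 0.0455). Control 3 was far above the other controls, and without it the change was -0.24 (adjusted p = 0.0153). BNIP3L measured 14.6, 12.7 and 13.9 FPKM in the knockout, against 16.1, 16.3 and 19.0 FPKM in the control (log2 change -0.30; limma, adjusted p = 0.0385). All knockout libraries of both genes lay below all controls. BNIP3 lost its call without knockout 1 (0.108), knockout 2 (0.185), knockout 3 (0.0896) or control 1 (0.0559), without a filter (0.0958) and as nuclear TPM (0.0520). BNIP3L lost its call without knockout 1 (0.0673), knockout 2 (0.144), knockout 3 (0.112) or control 1 (0.0623), without a filter (0.0612), as nuclear TPM (0.0584), with the GC/length adjustment (0.154) and with the adjustment and the block (0.209). With the GC/length adjustment BNIP3L stood at -0.12 and BNIP3 at -0.45. BNIP3L shares 330 of its 4307 exonic bases with PNMA2 on the opposite strand, whose reads cannot be told apart from it.

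PDK1 and PDK3 encode kinases that switch off pyruvate dehydrogenase and so hold pyruvate back from the citric acid cycle. PDK1 measured 2.47, 2.22 and 2.36 FPKM in the knockout, against 3.17, 3.22 and 3.07 FPKM in the control (log2 change -0.31; limma, Benjamini-Hochberg adjusted p = 0.0115). PDK3 sat near the filter, with 1.02, 0.913 and 1.10 FPKM in the knockout, against 1.38, 1.30 and 1.44 FPKM in the control (log2 change -0.24; limma, adjusted p = 0.0309). Neither gene's groups overlapped, and a pseudocount of 0.1 gave PDK3 a change of -0.41. PDK1 lost its call without knockout 2 (0.0515) or knockout 3 (0.0594) and as nuclear TPM (0.0503). PDK3 lost its call without knockout 1 (0.0835), knockout 2 (0.111), knockout 3 (0.0718) or control 1 (0.0868), as nuclear TPM (0.0666), with the GC/length adjustment (0.0543) and with the adjustment and the block (0.0805). PDK1 shares 445 of its 14883 exonic bases with an antisense RNA, whose reads cannot be told apart from it.

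Of the targets that did not pass, NDRG1, a stress-induced gene, came closest. It measured 35.0, 39.2 and 39.2 FPKM in the knockout, against 38.6, 51.4 and 57.1 FPKM in the control, so that control 1 lay within the knockout range. Its log2 difference of -0.35 missed the threshold (limma, Benjamini-Hochberg adjusted p = 0.0808), and passed as TPM (-0.40, 0.0367), with the replicate block (-0.35, 0.0195), with the adjustment and the block (-0.49, 0.0131), without control 1 (-0.51, 0.0107) and without control 3 (-0.23, 0.0492). The collagen prolyl hydroxylases P4HA1 and P4HA2, the histone demethylase KDM3A and ANKRD37 overlapped between groups, with log2 differences of -0.10, -0.02, -0.06 and -0.20. ANKRD37 shares 909 of its 2580 exonic bases with UFSP2 on the opposite strand, whose reads cannot be told apart from it.

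CA9 and CA12, carbonic anhydrases used as markers of tumour hypoxia, were at or near 0 and below the filter. CA9 was listed at 0 in every knockout library and at 0.057, 0.050 and 0.112 FPKM in the control libraries, and without a filter limma called it lower (-0.10, adjusted p = 0.0307). Of its 1670 exonic bases 643 are shared with ARHGEF39 on the opposite strand. CA12 was listed at 0 in all 6 libraries.

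Among the transporters SLC16A3 fell, and SLC2A1 and SLC16A1 did not pass. SLC2A1 (GLUT1), the main glucose importer of many cell types, measured 24.1, 25.6 and 25.4 FPKM in the knockout, against 25.5, 26.4 and 25.8 FPKM in the control. The groups overlapped, and the log2 difference was -0.05 (95% interval -0.20 to 0.10; limma, adjusted p = 0.646). SLC2A3 (GLUT3), a high-affinity importer, was below the filter, at 0.033, 0.055 and 0.054 FPKM in the knockout, against 0.244, 0.209 and 0.263 FPKM in the control. Its groups did not overlap, and without a filter limma gave a log2 change of -0.24 (adjusted p = 0.00153).

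SLC16A3 (MCT4), the lactate exporter of glycolytic cells, measured 4.14, 4.76 and 4.27 FPKM in the knockout, against 5.57, 5.59 and 6.56 FPKM in the control. All knockout libraries lay below all controls, and it fell by 0.36 on the log2 scale (limma, Benjamini-Hochberg adjusted p = 0.0184). With the GC/length adjustment its change was -0.60 (adjusted p = 0.00374, and 0.00279 with the block). The call was lost without knockout 1 (0.0743) or knockout 3 (0.0823). It shares 482 of 8995 exonic bases with CSNK1D on the opposite strand, whose reads cannot be told apart from it. SLC16A1 (MCT1), which carries lactate either way, measured 48.6, 45.2 and 50.1 FPKM in the knockout, against 58.2, 52.7 and 55.0 FPKM in the control, again without overlap. It did not pass (log2 difference -0.20; limma, adjusted p = 0.0789) but did with array weights (-0.20, 0.000995) and without control 3 (-0.20, 0.0174).

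**Figure D2:**
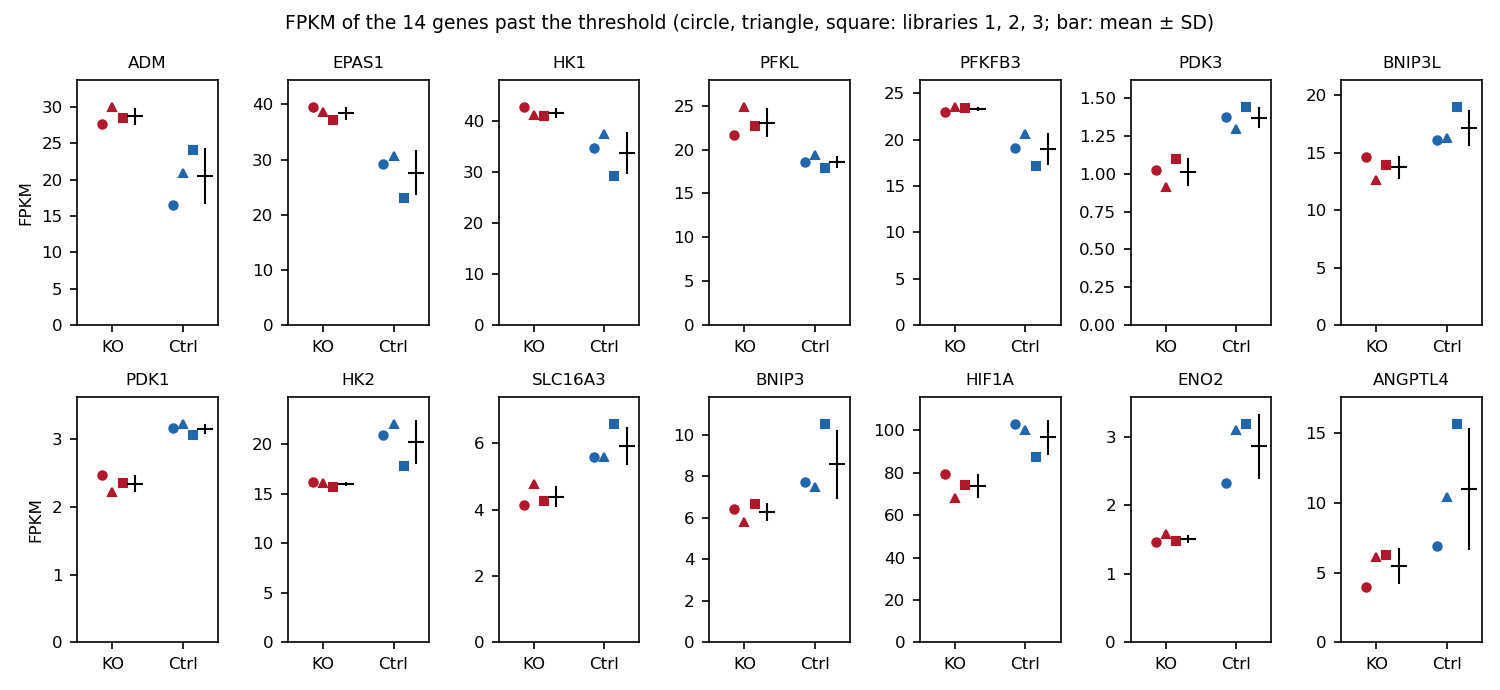
FPKM of the 14 called genes in each library, knockout left of control, with symbols for libraries 1, 2 and 3 and the mean ± SD (n = 3) beside them, each panel starting at 0. The groups do not overlap in any panel, and control 3 is the highest or lowest control in all 14.

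Of 19 tested genes HK1, PFKL and PFKFB3 rose, HK2 and ENO2 fell and 14 did not pass, with a median log2 change of 0.02. The 5 called genes are 26.3% of the 19, near the 22.9% of all tested genes. Together the 19 genes summed to 5783, 6135 and 5839 FPKM in the knockout libraries, against 5843, 5996 and 6219 FPKM in the control libraries, which overlap. Of the FPKM of nuclear genes they took 1.87% to 1.98% in knockout libraries, against 1.82% to 1.94% in control libraries. The higher and lower genes numbered 1 and 1 without knockout 1, 0 and 1 without knockout 2, 0 and 1 without knockout 3, 0 and 1 without control 1 and 4 and 3 without control 3. They numbered 0 and 3 as TPM, 1 and 1 as nuclear TPM and 0 and 2 with the block and the GC/length adjustment.

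The hexokinases, which trap glucose in the cell as its phosphate, moved in opposite directions. HK1, the ubiquitous form (chromosome 10, 69269984 to 69401884, GRCh38), measured 42.6, 41.0 and 40.9 FPKM in the knockout libraries, against 34.6, 37.3 and 29.1 FPKM in the control libraries. HK2, the inducible form (chromosome 2, 74833981 to 74893359), measured 16.2, 16.1 and 15.7 FPKM in the knockout, against 20.97, 22.0 and 17.8 FPKM in the control. Neither gene's groups overlapped, and the log2 changes were 0.30 for HK1 (limma, Benjamini-Hochberg adjusted p = 0.0466) and -0.32 for HK2 (adjusted p = 0.0307). HK2 made up 27.5%, 28.2% and 27.8% of their summed FPKM in knockout libraries, against 37.7%, 37.1% and 37.9% in control libraries. The mean share was 27.8% ± 0.366 in the knockout and 37.6% ± 0.444 in the control (SD, n = 3 each). That gap of -9.75 percentage points ran from -10.0 to -9.58 with any 1 library left out.

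HK1 lost its call without knockout 1 (0.140), knockout 2 (0.137), knockout 3 (0.123) or control 1 (0.0872), without a filter (0.0758), as TPM (0.110), as nuclear TPM (0.0719) and with the adjustment and the block (0.0603), and stood at 0.19 with the GC/length adjustment alone (limma, adjusted p = 0.0401). HK2 lost its call without knockout 1 (0.0871), knockout 2 (0.103), knockout 3 (0.113), control 1 (0.0981) or control 2 (0.0759) and as nuclear TPM (0.123). With the adjustment HK2 stood at -0.39 (adjusted p = 0.00133).

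Phosphofructokinase, the committed step, is encoded by the liver, muscle and platelet genes PFKL, PFKM and PFKP. PFKL measured 21.6, 24.8 and 22.7 FPKM in the knockout, against 18.6, 19.3 and 17.9 FPKM in the control, without overlap (log2 change 0.29; limma, Benjamini-Hochberg adjusted p = 0.0247). With the GC/length adjustment its change was 0.04, and the call was lost without knockout 2 (0.0893), knockout 3 (0.0919) or control 1 (0.0757), as TPM (0.0593), with the GC/length adjustment (0.560) and with the adjustment and the block (0.651). PFKP averaged 57.6 ± 2.24 FPKM in the knockout and 52.5 ± 4.57 FPKM in the control, and PFKM averaged 26.8 ± 1.10 FPKM in the knockout and 24.4 ± 2.04 FPKM in the control (SD, n = 3 each). Neither of these passed (log2 differences 0.13 and 0.13; limma, adjusted p = 0.253 and 0.264), except PFKM with array weights (0.12, 0.0252), and the groups overlapped for both.

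PFKFB3 makes fructose 2,6-bisphosphate, which activates phosphofructokinase. It measured 23.0, 23.5 and 23.4 FPKM in the knockout, against 19.1, 20.6 and 17.1 FPKM in the control, without overlap (log2 change 0.29; limma, Benjamini-Hochberg adjusted p = 0.0323). With the GC/length adjustment alone it stood at 0.15 (adjusted p = 0.0460), and the call was lost without knockout 1 (0.0891), knockout 2 (0.109), knockout 3 (0.117) or control 1 (0.0826), as TPM (0.0926), as nuclear TPM (0.0538) and with the adjustment and the block (0.102). Its relative PFKFB4 averaged 2.25 ± 0.0764 FPKM in the knockout and 2.21 ± 0.412 FPKM in the control (SD, n = 3 each), with a log2 difference of 0.02 (adjusted p = 0.872), and passed with array weights (0.14, 0.0318).

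ENO2, known as the neuronal enolase, had the smallest adjusted p of the set. It measured 1.47, 1.58 and 1.47 FPKM in the knockout libraries, against 2.32, 3.09 and 3.18 FPKM in the control libraries. The groups lay well apart, with a log2 change of -0.62 (SE 0.0942; limma, Benjamini-Hochberg adjusted p = 0.00241) that ran from -0.87 to -0.49 over the alternatives. By the ratio of means ENO2 stood at 52.7% of control. ENO1, the main enolase, measured 873.2, 952.1 and 893.6 FPKM in the knockout, against 874.3, 891.2 and 922.1 FPKM in the control (log2 difference 0.02, 95% interval -0.17 to 0.21). ENO2 was 0.166% ± 0.00175 of the FPKM of both enolases in the knockout and 0.318% ± 0.0463 in the control (SD, n = 3 each).

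The abundant enzymes did not pass. GAPDH, often used as a reference gene, measured 2228, 2439.7 and 2263 FPKM in the knockout, against 2354, 2427 and 2494 FPKM in the control (log2 difference -0.07, 95% interval -0.29 to 0.14; limma, adjusted p = 0.618). PKM, pyruvate kinase, was higher in every knockout library, at 742.1, 804.4 and 756.7 FPKM, against 714.7, 728.6 and 656.4 FPKM in the control (log2 difference 0.13, 95% interval -0.06 to 0.33). The difference of PKM took the opposite sign with the GC/length adjustment, as did that of GPI, the isomerase of the second step, at 72.1 ± 4.97 FPKM in the knockout and 64.9 ± 2.32 FPKM in the control (SD, n = 3 each). LDHA, which turns pyruvate into lactate, averaged 535.8 ± 18.7 FPKM in the knockout and 565.9 ± 23.5 FPKM in the control (SD, n = 3 each; log2 difference -0.08, 95% interval -0.26 to 0.10). LDHB, whose enzyme favours the reverse reaction, was lower in every knockout library, at 148.4, 146.6 and 152.2 FPKM, against 176.0, 160.0 and 213.1 FPKM in the control. It missed the threshold (log2 difference -0.28; limma, adjusted p = 0.0784) and passed as TPM (-0.33, 0.0329), with array weights (-0.20, 0.00119), without control 2 (-0.38, 0.0294) and without control 3 (-0.17, 0.0243).

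ALDOA, TPI1, PGK1 and PGAM1 overlapped between groups, with log2 differences of -0.01, -0.14, 0.05 and 0.01. ALDOC, the brain form of aldolase, measured 11.3, 12.6 and 11.2 FPKM in the knockout, against 8.41, 10.7 and 12.0 FPKM in the control, and did not pass (log2 difference 0.17; limma, adjusted p = 0.316). It passed under 2 of the 15 alternatives, with array weights (0.32, 0.000374) and without control 3 (0.27, 0.0201), and stood at 0.04 without control 1 (0.823). Some of these enzymes have processed pseudogenes, and ALDOA shares 1657 of 3916 and LDHB 997 of 2983 exonic bases with other annotated genes on the same strand, so their levels are uncertain by the reads that could be split.

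Isoform shares were compared in 13 families by exact two-sided permutation tests, which cannot go below p = 0.1 with 3 against 3. Among single genes the groups did not overlap for 45.6% of all tested genes. Shares did not overlap between groups in 7 of the 13 families, each at an exact permutation p of 0.1 (Benjamini-Hochberg adjusted p = 0.186 over the 13). Besides HIF1A, HK2 and ENO2 these included SLC2A3, at 0.188% ± 0.0442 of both glucose transporters in the knockout and 0.914% ± 0.116 in the control. LDHB was 21.8% ± 0.450 of both lactate dehydrogenases in the knockout and 24.4% ± 2.11 in the control. PFKP was 53.6% ± 0.903 of the phosphofructokinases in the knockout and 54.9% ± 0.664 in the control. ALDOC was 2.89% ± 0.0759 of both aldolases in the knockout and 2.55% ± 0.262 in the control (SD, n = 3 each throughout). Groups all but touched for LDHB, PFKP and ALDOC. Their nearest knockout and control libraries stood at 22.18% and 22.24%, 54.41% and 54.49%, and 2.82% and 2.76%. The shares of SLC16A3, PFKFB4, PDK3, BNIP3L, P4HA2 and EGLN1 in their families overlapped between groups. PDK3 was 30.1% ± 1.48 of both kinases in the knockout and 30.3% ± 1.599 in the control, and the sign of that gap turned without knockout 1 (0.184 percentage points), knockout 2 (0.233) or control 3 (0.592).

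**Figure D3:**
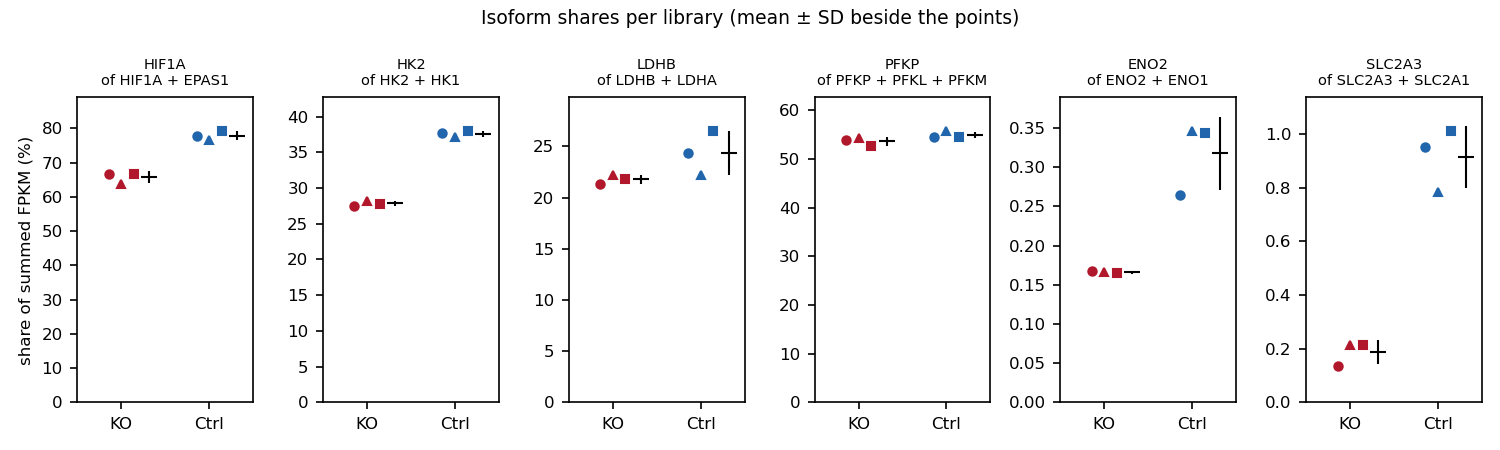
Share of 1 isoform in the summed FPKM of its family in each library, knockout left of control, with symbols for libraries 1, 2 and 3 and the mean ± SD (n = 3) beside them, axes starting at 0. HK2 averages 27.8% in the knockout and 37.6% in the control with little spread, and HIF1A 65.8% in the knockout and 77.9% in the control.

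For a few of these genes, neighbours on the chromosome shifted the same way. Around SLC16A3, on chromosome 17, 49 of 72 tested genes within 5 Mb were called lower and none higher, with a median log2 difference of -0.38 beside its own -0.36. Around PDK3, on chromosome X, all 14 neighbours were below 0, with a median of -0.28 beside its own -0.24. A shift of the stretch and a change of the gene itself cannot be told apart for these genes. PGK1, phosphoglycerate kinase, also lies on chromosome X among 11 neighbours all below 0 (median -0.31), but measured 107.4, 104.1 and 104.8 FPKM in the knockout, against 100.1, 98.5 and 106.8 FPKM in the control. ALDOC, on chromosome 17, stood at 0.17 among neighbours with a median of -0.19. The neighbours of HIF1A had a median of -0.12, and those of the other 11 called genes had medians from -0.09 (EPAS1) to 0.16 (BNIP3L).

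**Figure D4:**
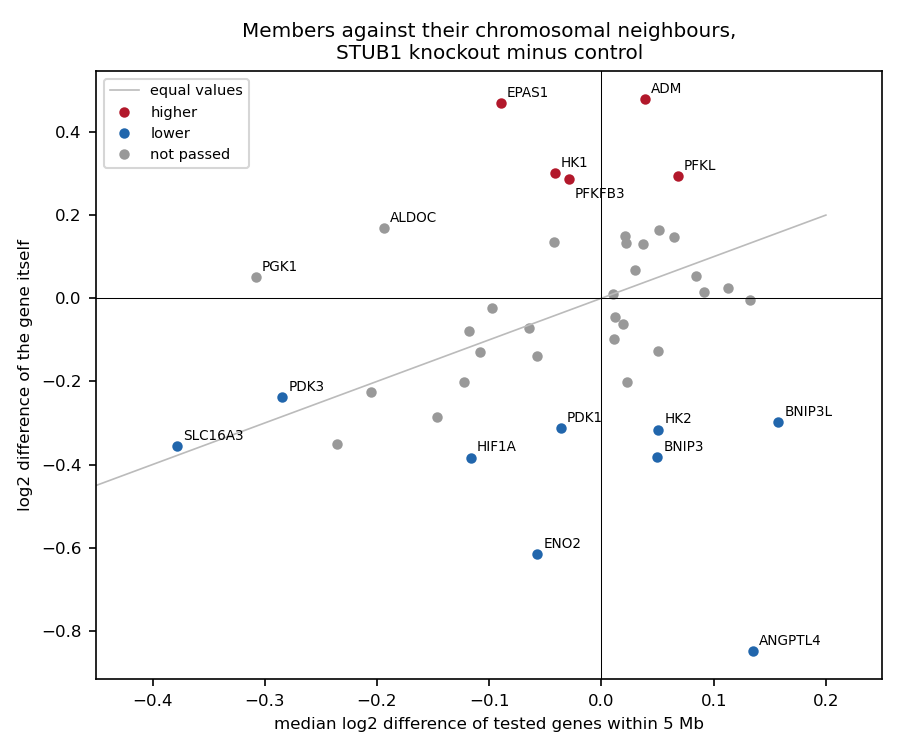
Log2 difference of each tested gene, knockout minus control (vertical axis), against the median over tested genes within 5 Mb on either side (horizontal axis), coloured by call, with a line of equal values. SLC16A3 and PDK3 lie by the line, PGK1 and ALDOC above it at negative neighbour medians, and ANGPTL4, ENO2, EPAS1 and ADM far from it.

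Other genes of these pathways came from 8 lists. Of 15 tested HIF regulators HSP90AA1, CITED2 and MXI1 fell, USP20 and OS9 rose and 10 did not pass, among them CUL2 and RBX1 of the VHL ligase (33.3% called, against 22.9% of all tested genes). Higher and lower regulators numbered 0 and 2 without knockout 1, 2 or 3 or control 1, and 0 and 3 with the GC/length adjustment. OS9, a lectin of the endoplasmic reticulum, had a change of 0.21 (limma, adjusted p = 0.0466) and lost its call without knockout 1 (0.0938), knockout 2 (0.124), knockout 3 (0.183), control 1 (0.145) or control 2 (0.0858), as TPM (0.151), with the GC/length adjustment (0.0617), with the adjustment and the block (0.0961) and with the replicate block (0.0578). HSP90AA1, the inducible cytosolic HSP90, measured 721.1, 651.0 and 713.5 FPKM in the knockout, against 1039, 965.5 and 1012 FPKM in the control (log2 change -0.53; limma, Benjamini-Hochberg adjusted p = 0.00326). The groups lay far apart. CITED2, which competes with HIF for a coactivator, averaged 3.72 ± 0.195 FPKM in the knockout and 6.31 ± 1.40 FPKM in the control (SD, n = 3 each). It lies on chromosome 6, where 25 of 29 neighbours were called lower, with a median of -0.61 beside its own -0.61. MXI1, a MYC antagonist, fell by 0.27 on the log2 scale (adjusted p = 0.0254) and lost its call without knockout 1 (0.0624), knockout 2 (0.0844), knockout 3 (0.0939), control 1 (0.0701) or control 2 (0.0632), as nuclear TPM (0.0927) and with the adjustment and the block (0.0566). USP20, a deubiquitinase, had a change of 0.32 (adjusted p = 0.0319), or 0.14 with the GC/length adjustment, and lost its call without knockout 1 (0.0823), knockout 2 (0.126), knockout 3 (0.0825) or control 1 (0.0928), without a filter (0.0602), as TPM (0.0729), as nuclear TPM (0.0524), with the GC/length adjustment (0.0925) and with the adjustment and the block (0.132).

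Of 33 other hypoxia-induced genes tested 6 rose, 2 fell and 25 did not pass, with a median of 0.04 (24.2% called, against 22.9% of all tested genes). Among those that rose were EFNA1, IGFBP3, STC2, LOXL2 and GYS1. IGFBP3, STC2 and LOXL2 had changes of 0.38, 0.28 and 0.31. IGFBP3 lost its call without knockout 1 (0.0596), knockout 3 (0.0727) or control 1 (0.0563). STC2 lost its call without knockout 1 (0.0810), knockout 2 (0.0623), knockout 3 (0.0910) or control 1 (0.0855), as TPM (0.0822) and with the adjustment and the block (0.0599). LOXL2 lost its call without knockout 1 (0.0702), knockout 2 (0.109), knockout 3 (0.107) or control 1 (0.0868), as TPM (0.0704), with the GC/length adjustment (0.0618) and with the adjustment and the block (0.114), and stood at 0.15 with the adjustment. EFNA1, an ephrin ligand, measured 22.7, 23.2 and 21.8 FPKM in the knockout, against 15.3, 15.5 and 18.6 FPKM in the control (log2 change 0.44; limma, Benjamini-Hochberg adjusted p = 0.00800) and lost its call without knockout 2 (0.0516). The genes that fell, JMJD6, a lysyl hydroxylase, and NARF, had log2 changes of -0.63 and -0.65 (adjusted p = 0.000821 and 0.00127), both on chromosome 17 among neighbours with medians of -0.37 and -0.38. Higher and lower genes of this list numbered 2 and 2 without knockout 1, 2 or 3 or control 1, 10 and 6 without control 3, 3 and 3 as TPM and 6 and 6 with the GC/length adjustment.

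Pyruvate entry into mitochondria had 5 of 11 tested genes lower and 1 higher (median -0.28), against 13.3% lower and 9.58% higher over all tested genes. There were 6 lower and 2 higher with the replicate block, but 1 lower without knockout 1, 2 or 3 or control 1, and 2 lower as nuclear TPM. MPC1, a subunit of the mitochondrial pyruvate carrier, averaged 12.99 ± 1.45 FPKM in the knockout and 21.2 ± 2.99 FPKM in the control (SD, n = 3 each). It fell by 0.66 on the log2 scale (limma, Benjamini-Hochberg adjusted p = 0.00414), on chromosome 6 among 17 neighbours of which 15 were called lower (median -0.52). DLD and PDHX, parts of the pyruvate dehydrogenase complex, fell by 0.30 and 0.28 (adjusted p = 0.0219 and 0.0271), and stood at -0.16 and -0.16 with the GC/length adjustment. DLD lost its call without knockout 1 (0.0512), knockout 2 (0.0853), knockout 3 (0.0879) or control 1 (0.0804), as nuclear TPM (0.0530) and with the adjustment and the block (0.0775). PDHX lost its call without knockout 1 (0.0831), knockout 2 (0.0998), knockout 3 (0.0755) or control 1 (0.0683), as nuclear TPM (0.0530) and with the adjustment and the block (0.0656). PC, pyruvate carboxylase, had a change of 0.46 (adjusted p = 0.00768), or 0.27 with the adjustment, and lost its call without knockout 2 (0.0516).

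In the citric acid cycle 2 of 17 tested genes rose and none fell (median 0.01, 11.8% called, against 22.9% of all tested genes). They were 1 without knockout 1, 2 or 3 or control 1 and 4 without control 2. SDHA, of succinate dehydrogenase, measured 118.2, 121.1 and 118.4 FPKM in the knockout, against 79.0, 83.2 and 90.3 FPKM in the control (log2 change 0.50; limma, Benjamini-Hochberg adjusted p = 0.00223). It lies on chromosome 5, where 9 of 15 neighbours were called higher (median 0.33). With the GC/length adjustment 3 genes of the cycle were called higher and 1 lower.

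Of 11 tested glycolytic isoenzymes and regulators outside the set 1 rose, 2 fell and 8 did not pass (27.3% called, against 22.9% of all tested genes). BSG, the chaperone of the lactate carriers, was among those that did not pass. Higher and lower genes numbered 1 and 1 without knockout 1, 2 or 3 or control 1, and 3 and 3 without control 3. SLC2A6, a member of the glucose transporter family, averaged 15.0 ± 1.26 FPKM in the knockout and 9.42 ± 0.336 FPKM in the control (SD, n = 3 each; log2 change 0.62, adjusted p from limma 0.00121). TIGAR, a bisphosphatase that opposes PFKFB3, fell by 0.39 on the log2 scale (limma, adjusted p = 0.00810). BPGM, which makes 2,3-bisphosphoglycerate, fell by 0.25 (adjusted p = 0.0426), stood at -0.08 with the GC/length adjustment and lost its call without knockout 1 (0.0630), knockout 2 (0.135), knockout 3 (0.1502), control 1 (0.0943) or control 2 (0.0629), without a filter (0.0685), as TPM (0.0515), as nuclear TPM (0.110), with the GC/length adjustment (0.347) and with the adjustment and the block (0.395).

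The pentose phosphate pathway had 1 of 7 tested genes called (14.3%, against 22.9% of all tested genes). This was RPIA, an isomerase, which was lower, at 18.0, 17.4 and 17.8 FPKM in the knockout, against 23.3, 22.7 and 28.2 FPKM in the control (limma, Benjamini-Hochberg adjusted p = 0.00835). RPIA lost its call without knockout 2 (0.0539). Glycogen metabolism had 1 of 9 tested genes higher and 0 lower (11.1% called, against 22.9% of all tested genes). Its counts were 2 and 2 with the replicate block, 2 and 2 without control 3, 2 and 0 without control 2, and 0 and 0 without knockout 1, 2 or 3 or control 1. The 1 was the synthase GYS1, with a change of 0.31 (adjusted p = 0.0420), or 0.19 with the GC/length adjustment, and a call lost without knockout 1 (0.108), knockout 2 (0.160), knockout 3 (0.0942) or control 1 (0.0877), without a filter (0.0709), as TPM (0.0916), as nuclear TPM (0.0660), with the GC/length adjustment (0.0982) and with the adjustment and the block (0.0695). Of 7 genes listed for gluconeogenesis only 3 were tested. All 3 were called, PC among them, against 22.9% of all tested genes. PCK2, the mitochondrial PEP carboxykinase, averaged 8.15 ± 0.266 FPKM in the knockout and 5.29 ± 0.620 FPKM in the control (SD, n = 3 each; log2 change 0.55, adjusted p from limma 0.00282). G6PC3, a glucose 6-phosphatase, fell by 0.31 on the log2 scale (limma, adjusted p = 0.0342), on chromosome 17 where 71 of 133 neighbours were called lower, and lost its call without knockout 1 (0.124), knockout 3 (0.135) or control 1 (0.0646), without a filter (0.0547) and as nuclear TPM (0.0553).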

How the data were processed

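The deposited table gives the authors' FPKM values, 1 for each gene and library. Per the submitters' processing notes, tools were Trimmomatic 0.36, HISAT2 2.0.5, Cufflinks, featureCounts 1.6.3 and edgeR 3.6.3, on GRCh38.p13; their roles, the annotation and the strand setting are not given. FPKM sums ran from 410756 to 447332. Mitochondrially encoded genes made up 26.2% to 30.8% of them in knockout libraries, against 20.9% to 26.8% in control libraries. Steps of low values put depth at an estimated 45500000 to 52400000 reads, but 59.5% to 65.5% of such values lay within 0.15 of a whole read, too few to recover reads, so no count test was run.

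Symbols were found for 19991 of 20014 identifiers, and positions, exons and GC content for 19873 in GENCODE 29. Promoters are from RefSeq (GRCh38.p14). Genes averaging at least 1 FPKM were tested on log2(FPKM + 1), pseudocount 1, with limma 3.58.1 (R 4.3.3; genotype as the term, intensity trend) and Benjamini-Hochberg adjustment over 11262 genes at 0.05. This scale understates changes of low genes. Tables used Python 3.11.15 with scipy 1.17.1, numpy 2.4.6, pandas 2.3.3 and matplotlib 3.10.9. The fit was tested on simulated data.

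The genes and lists were chosen with earlier results of these data known. From each list the text names up to 4 called genes with the smallest p; OS9, IGFBP3, STC2, LOXL2, CUL2, RBX1 and BSG were named after their values were seen. A few genes that this rule or the marker lists hold are not reported here. Deviations from group means correlated at 0.375, 0.1498 and 0.188 between libraries of the same number, all over 0.1, so these are treated as pairs in the replicate block. Between libraries of different numbers they correlated at -0.310 to 0.0665. The labels state no common batch, and the pairing was drawn from the same values that the block then tests. The GC/length adjustment subtracted spline fits (4 degrees of freedom each) of each library's deviations from gene means. Other alternatives were a pseudocount of 0.1, no filter, TPM, nuclear TPM, array weights, no intensity trend, and each library left out.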

Additional observations from a re-analysis of the deposited data

How the results depend on the processing

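All 14 called genes of the set kept their direction under all 15 alternatives, while 34 of 420 values of the 28 genes that did not pass changed sign. Groups of the 14 did not overlap, so only TPM, nuclear TPM and the GC/length adjustment, with or without the block, could turn a sign. Under the other alternatives their direction was fixed in advance. The number of genes changed among all tested was 2579, between 1030 and 4521 with 1 library left out, and 6437 with array weights, whose estimation stopped before its tolerance. Genes of the set called higher numbered 5, between 0 and 6 with 1 library left out, 3 without a filter, 2 as TPM, 3 as nuclear TPM, 2 with the replicate block and the GC/length adjustment, and 9 with array weights. Those called lower numbered 9, between 1 and 13 with 1 library left out, and 3 as nuclear TPM. The replicate block alone gave 5 higher and 10 lower, and NDRG1 was the 1 call of the 42 genes that it changed. Isoform share gaps kept their sign with any library left out except that of PDK3, from -1.07 to 0.592 percentage points. With the GC/length adjustment, with or without the block, log2 differences that turned were EGLN2 -0.0933, VEGFA -0.0351, P4HA1 0.0971, GPI -0.00814, PFKFB4 -0.127, ENO1 -0.0675 and PKM -0.00625. As TPM they were PFKFB4 -0.00494, PGAM1 -0.0342 and ENO1 -0.0283, as nuclear TPM P4HA2 0.0202, SLC2A1 0.000456 and ALDOA 0.0428, and with array weights ARNT -0.0283, P4HA2 0.0198 and ALDOA 0.0695. With 1 library left out, those that turned ran from -0.0478 to 0.131 for ARNT, -0.00335 to 0.115 for EGLN2, -0.0649 to 0.0101 for P4HA2, -0.0644 to 0.120 for PFKFB4, -0.0611 to 0.0831 for ALDOA, -0.0356 to 0.0367 for PGAM1 and -0.0199 to 0.0424 for ENO1. Why these values moved was not tested. Control 3 had a slope of -0.104 log2 units for each doubling of transcript length, and the other libraries -0.00939 to 0.0349. Slopes with GC content, in log2 units for each 10 percentage points, did not overlap between groups. They ran from 0.0118 to 0.135 in knockout libraries, against -0.1004 to -0.0369 in control libraries. Why the GC slopes differed by group was not tested. A gene listed at 0, such as CA12, is not shown to be absent.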
